A study of Rattus norvegicus with 7 samples.

Results

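Syndecan 1 (clone RGIAE40), syndecan 4 (clone RNABM48) and HB-EGF (clone RNABX10), the heparin-binding member of the epidermal growth factor (EGF) family, are 3 of the 6240 features of a rat cDNA array. They were chosen by clone ID, as carriers of heparan sulfate and a ligand that binds heparin. The arrays compared RNA from male Sprague Dawley rats that had received a cerebral cortical contusion by weight drop on one side of the brain. On each array the injured (ipsilateral) cortex of 1 animal was set against its own uninjured (contralateral) cortex, at 1 day post injury (1 dpi, 3 arrays) or 4 dpi (4 arrays). Every value is a log2 ratio, ipsilateral over contralateral, so that 1 is a doubling on the injured side and a negative value a lower level there. Ipsilateral RNA carried the dye Cy5 on 4 arrays and Cy3 on 3. Sham-operated cortex was not measured on these arrays, so the effect of opening the skull cannot be told apart from that of the contusion, and age was not given in the sources used here. The tissue is whole cortex around the injury, in which fewer cells of a type and less RNA per cell cannot be told apart.

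Syndecans are single-span membrane proteins whose extracellular part carries heparan sulfate, a sugar chain that holds growth factors, chemokines and matrix proteins at the cell surface. Syndecan 1 is known above all from epithelia and plasma cells and syndecan 4 from focal adhesions, where it takes part in the binding of cells to fibronectin. HB-EGF is made as a membrane protein, is released by metalloproteinases, and activates the EGF receptor, to which heparan sulfate helps to present it. All 3 belong to the repertoire of healing skin and vessel wall, and reactive glia are known to make syndecans after brain injury.

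The promoters of both syndecan genes are shown, while that of the HB-EGF gene was searched but is not shown. All 3 clones were called upregulated at 1 dpi. The windows run from 250 bases before to 50 bases after the start of the gene in RefSeq (build GRCr8), and the clones were linked to them through the gene symbols Sdc1, Sdc4 and Hbegf, since the listed accessions are tags of expressed sequence. Capitals mark the letters found by a search of both strands for 5 motifs. These were the GC box, spelled GGGCGG, to which factors of the Sp family bind, and the TATA box near the start of transcription, spelled TATAA. The others were the site of the early response factor AP-1, spelled TGANTCA, that of the cytokine-driven STAT factors, spelled TTCNNNGAA, and the consensus of NF-kB. The Sdc1 window lies on the forward strand at chr6:37281791-37282090, and the Sdc4 window on the reverse strand at chr3:173592874-173593173.
Sdc1: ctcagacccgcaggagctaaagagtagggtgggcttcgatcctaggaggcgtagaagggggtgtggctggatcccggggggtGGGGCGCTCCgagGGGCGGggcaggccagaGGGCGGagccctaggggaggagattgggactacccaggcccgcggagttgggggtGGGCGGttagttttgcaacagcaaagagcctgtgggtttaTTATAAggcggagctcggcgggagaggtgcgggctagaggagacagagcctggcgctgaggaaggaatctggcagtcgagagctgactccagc
Sdc4: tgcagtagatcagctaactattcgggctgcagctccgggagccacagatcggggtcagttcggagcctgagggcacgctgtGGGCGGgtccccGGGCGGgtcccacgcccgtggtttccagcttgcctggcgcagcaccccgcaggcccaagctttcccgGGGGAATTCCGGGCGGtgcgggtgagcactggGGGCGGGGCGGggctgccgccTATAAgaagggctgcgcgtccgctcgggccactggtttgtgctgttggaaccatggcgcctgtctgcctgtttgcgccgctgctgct
Both windows held a TATA box, which began 42 bases before the start in Sdc1 (its other-strand match overlaps it by all but 1 base) and 37 bases before it in Sdc4. The GC box matched 3 times in Sdc1 and 5 times in Sdc4. The NF-kB consensus matched 1 time in each, as ggggcgctcc from 168 bases before the start of Sdc1 and as ggggaattcc from 90 bases before that of Sdc4, where it runs on directly into a GC box. Of 27457 rat promoters of the same length, 26.1% held the TATA box, 34.9% the GC box, 7.6% the NF-kB consensus, 7.33% the AP-1 site and 8.68% the STAT site. The AP-1 and STAT letters were found in neither syndecan window, and in the Hbegf window, searched in the same way, none of the 5 motifs matched. The Sdc1 window was 64.7% G and C and the Sdc4 and Hbegf windows 68.7% each, against a median of 52.3% over all promoters. These matches describe letters only, and binding was not measured.

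The values available for these clones differed between them. A missing value is a spot that had been flagged as absent or as less than 2 times above the background. Of 21 possible values, 14 were present, with 1 missing at 1 dpi and 6 at 4 dpi. Syndecan 4 had a value on all 7 arrays, syndecan 1 on all 3 arrays of 1 dpi and on replicates 1 and 2 of 4 dpi, and HB-EGF on replicates 1 and 2 of 1 dpi only. The arrays themselves differed in this respect, with a value for 3993 to 5208 features at 1 dpi, and for 4133, 5082, 2332 and 3270 features on replicates 1 to 4 of 4 dpi. Syndecan 1 was thus missing on the 2 arrays with the fewest values. HB-EGF was also missing on arrays with 5041 and 5082 values. All 14 values present were compared, and 12 of them were above 0.

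**Figure D1:**
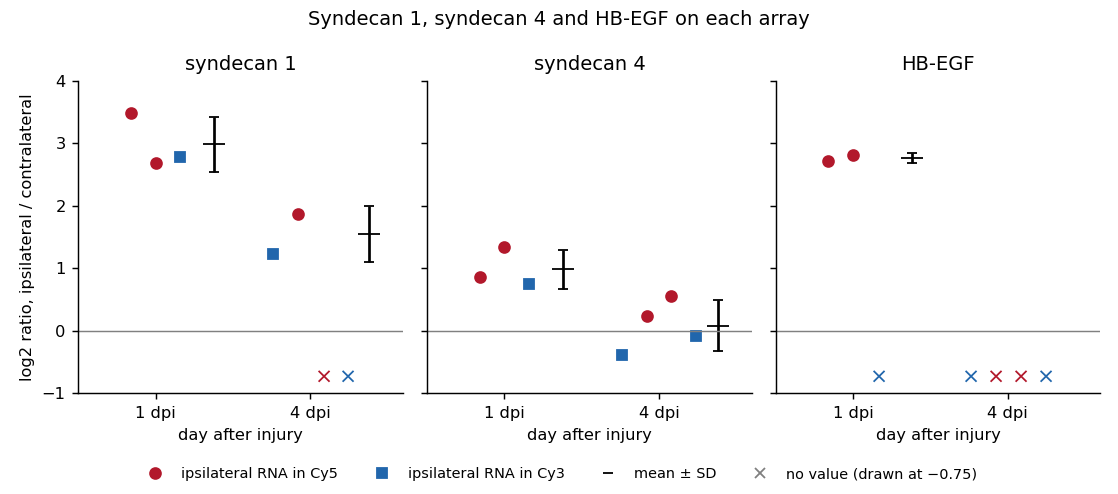
Log2 ratio (ipsilateral over contralateral cortex) of syndecan 1, syndecan 4 and HB-EGF on each array at 1 and 4 dpi. Circles are arrays with ipsilateral RNA in Cy5 and squares those with it in Cy3, bars give mean ± SD and crosses mark arrays without a value. Every value at 1 dpi lies above 0.7, and syndecan 4 lies on both sides of 0 at 4 dpi.

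Syndecan 1 was strongly upregulated at 1 dpi. Its log2 ratio was 3.49, 2.68 and 2.79 on replicates 1 to 3, which placed it 3rd, 10th and 5th from the top among the features with a value on each array. All 3 animals were high, and the array with swapped dyes lay between the others. The mean was 2.99 ± 0.44 (SD, n = 3), a 7.93-fold higher level on the injured side, with a standard error of 0.16 and a 95% interval of 2.63 to 3.34 (adjusted p = 5.44e-06, limma). For a call, the adjusted p had to be at most 0.02 and the mean had to lie beyond 0.7 in either direction. This mean ranked 7th of 4952 features tested at 1 dpi, of which 193, or 3.9%, were called upregulated and 75, or 1.51%, downregulated. The clone names come from the study's lists of regulated genes, and since those lists rest on the arrays analysed here, a call of a listed clone is not independent evidence of its direction.

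HB-EGF was the other clone with a very high ratio at 1 dpi. Its log2 ratio was 2.72 on replicate 1 and 2.82 on replicate 2, ranking 8th and 9th from the top of those arrays. Both arrays carried ipsilateral RNA in Cy5, and the array of the opposite dye gave no value, so that the dye and the response to injury cannot be told apart for this clone. The mean was 2.77 ± 0.07 (SD, n = 2), or 6.81-fold, with a 95% interval of 2.43 to 3.11 in a fit that shares its estimate of the spread across features (adjusted p = 7.59e-06, limma). It ranked next to syndecan 1, as 8th of the 4952 features.

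Syndecan 4 was upregulated at 1 dpi to a smaller extent. Its log2 ratio was 0.86, 1.34 and 0.75 on replicates 1 to 3, and all 3 animals lay above 0. The value of replicate 3 stood only a little above the limit of 0.7. The mean was 0.99 ± 0.31 (SD, n = 3), or 1.98-fold, with a standard error of 0.14 and a 95% interval of 0.67 to 1.30 (adjusted p = 0.00132, limma), and it ranked 101st of the 4952 features. On each of the 5 arrays where both were measured, the log2 ratio of syndecan 1 exceeded that of syndecan 4, by 2.63, 1.34 and 2.04 at 1 dpi and by 1.62 on each array of 4 dpi that had both. These gaps set 2 probes side by side and were not tested.

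At 4 dpi syndecan 1 was still higher on the injured side of both animals that gave a value. The log2 ratio was 1.23 on replicate 1 (Cy3) and 1.86 on replicate 2 (Cy5), ranking 25th of 4133 and 20th of 5082 features. The mean was 1.55 ± 0.45 (SD, n = 2), or 2.92-fold. A test at 4 dpi required 3 values, so syndecan 1 was not among the 3191 features tested there, of which 84, or 2.63%, were called upregulated and 12, or 0.376%, downregulated. With 2 values allowed, it was called (95% interval 1.12 to 1.97, adjusted p = 0.00307, limma), as were 2.53% of 4151 features in the upward direction, and it ranked 26th.

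Syndecan 4 did not pass the test at 4 dpi. Its log2 ratio was -0.39, 0.24, 0.56 and -0.08 on replicates 1 to 4. Both arrays with ipsilateral RNA in Cy5 (replicates 2 and 3) lay above 0, and both in Cy3 (replicates 1 and 4) lay below it. The mean was 0.08 ± 0.41 (SD, n = 4), with a 95% interval of -0.24 to 0.40 (adjusted p = 0.74, limma), so a rise of the size seen at 1 dpi lies outside the interval. For HB-EGF no array of 4 dpi gave a value, and its level there is not known. Of the 193 features called upregulated at 1 dpi, 15 (7.8%) likewise had no value at 4 dpi, against 128 (2.6%) of all 4952 features tested at 1 dpi.

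Where values allowed, the change from 1 to 4 dpi was itself put to the test. For syndecan 4 the lowest array of 1 dpi (0.75) lay above the highest of 4 dpi (0.56). Its log2 ratio was lower at 4 dpi by a difference of -0.90 (standard error 0.22, 95% interval -1.37 to -0.43, adjusted p = 0.0342, limma), the 20th lowest of 3188 features tested. Of these, 48, or 1.51%, were called lower and 111, or 3.48%, higher at 4 dpi, the limit here being an adjusted p of 0.05. The call was close to its limit. An exact two-sided permutation test over all 35 splits of the arrays gave an unadjusted p = 0.0571, where the smallest it allows is 0.0286. The unadjusted p of limma was 0.00121. The adjusted p of limma ranged from 0.0112 to 0.157 when 1 array was left out. The call was lost without replicate 1 (0.103) or 2 (0.157) of 1 dpi and without replicate 1 (0.0538) or 4 (0.0751) of 4 dpi. The direction was negative in every one of these fits.

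**Figure D2:**
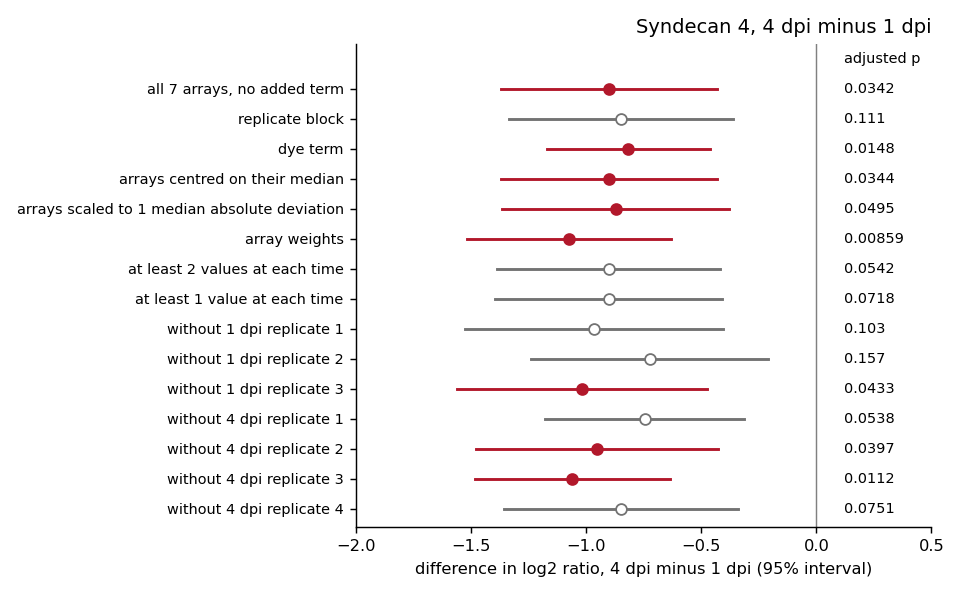
Difference in the log2 ratio of syndecan 4, 4 dpi minus 1 dpi, with its 95% interval under each setting (point and line), and the adjusted p beside it. Filled red points have an adjusted p within the limit of 0.05 and open grey points do not. All 15 estimates lie between -1.07 and -0.72, and every interval lies below 0.

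Because the dye moved with the values of syndecan 4 at 4 dpi, the difference was also taken within each dye, a comparison added after the values had been seen. It was -0.70 between 2 and 2 arrays with ipsilateral RNA in Cy5, and -0.99 between 1 and 2 arrays in Cy3. With a dye term in the fit it was -0.82 (adjusted p = 0.0148, limma). For syndecan 1 the difference was -1.44, from a mean of 2.99 to one of 1.55, and the 3 values of 1 dpi lay above both of 4 dpi. It was -1.22 within Cy5 and -1.56 within Cy3. With 2 values allowed at each time the adjusted p was 0.0261 (95% interval -2.06 to -0.82, limma), and 0.903% of 4097 features were then called lower. An exact two-sided permutation test of 3 against 2 arrays gave p = 0.1, the smallest it allows. For HB-EGF no difference could be formed.

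Replicate 1 of 4 dpi stood apart over the features upregulated at 1 dpi as a whole. Of the 193 called, 138 had a value on it and on another array of 4 dpi, and it was the lowest for 108 of them (78.3%), against 1140 of 3996 (28.5%) among all features tested at 1 dpi. Across all features its log2 ratios correlated with replicates 1 to 3 of 1 dpi at r = 0.16, 0.01 and 0.42, and those of the other arrays of 4 dpi at 0.26 to 0.64. Replicate 1 of 4 dpi had ipsilateral RNA in Cy3, as did replicate 3 of 1 dpi, while replicates 1 and 2 of 1 dpi had it in Cy5. Replicate 4 of 4 dpi, also in Cy3, correlated with replicates 1 to 3 of 1 dpi at 0.35, 0.26 and 0.53. The part of the dye in these values was not tested. Among 21 related clones called upregulated at 1 dpi, which are described by role in later paragraphs, 15 had a value on replicate 1 and on another array of 4 dpi, and replicate 1 was the lowest for 9 of them, with a median log2 ratio of 0.10 against 1.01 for the mean of the other arrays. Syndecan 4 was lowest, and syndecan 1 the lower of its pair, on that array. Without it the mean of syndecan 1 rests on the single value of 1.86, the mean of syndecan 4 at 4 dpi is 0.24, and its difference from 1 dpi is -0.75.

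The surroundings of these genes were taken from 30 clones of the study's lists that code for adhesion receptors and their linkers, heparin-binding secreted proteins, glucuronyltransferases, EGF, MAP kinase and growth response genes, and proteins that control proteases at the cell surface. All 30 were tested at 1 dpi, where 21 were called upregulated and 4 downregulated, beside 3.9% up and 1.51% down over all 4952 features. The median log2 ratio was 1.02, against 0.01 over all features. At 4 dpi 19 were tested, 5 of which were called upregulated and 0 downregulated by limma (8 were above and 3 below 0 at an unadjusted p under 0.05, and SAM called 6 up and 0 down), beside 2.63% up and 0.376% down over all 3191 features. The median was then 0.33, against -0.01. Since the clones had been listed as regulated from these arrays, the counts were given no test.

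**Figure D3:**
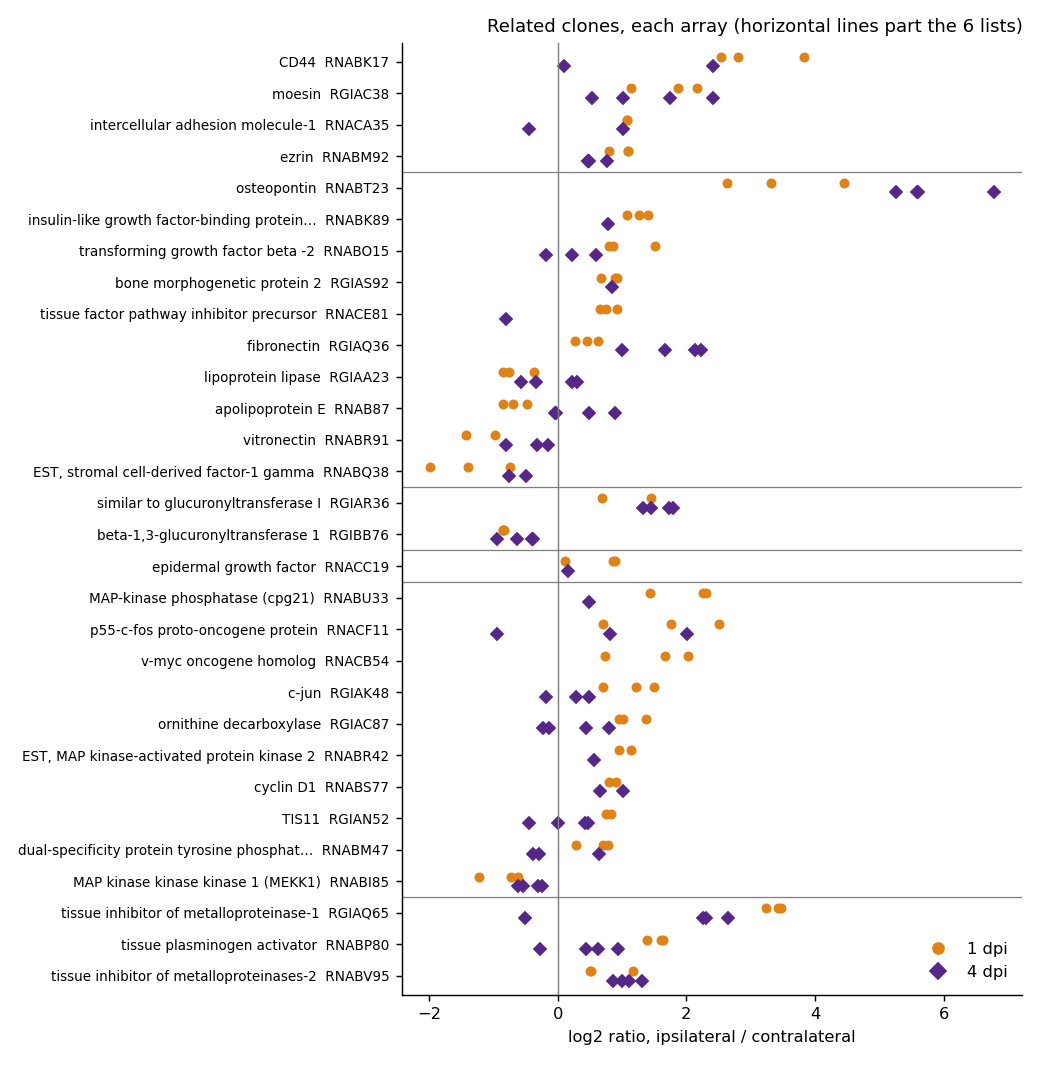
Log2 ratio of each of the 30 related clones on every array with a value, with 1 dpi as orange circles and 4 dpi as purple diamonds, ordered within 6 lists by the mean at 1 dpi. CD44, osteopontin and TIMP-1 reach the range of syndecan 1 and HB-EGF at 1 dpi, and osteopontin lies above 5 on every array of 4 dpi.

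Among adhesion receptors and linkers, all 4 clones were upregulated at 1 dpi. CD44, the hyaluronan receptor, of which some variants carry heparan sulfate, had log2 ratios of 2.80, 2.54 and 3.83 (mean 3.05 ± 0.68, adjusted p = 1.31e-05, limma), in the range of syndecan 1. It gave values on the same 5 arrays as syndecan 1, with 0.10 and 2.42 at 4 dpi. Intercellular adhesion molecule-1 had a mean of 1.08 at 1 dpi, and moesin and ezrin, which tie membrane proteins to actin, had means of 1.72 and 1.00. Moesin was also called at 4 dpi (1.43, adjusted p = 0.0078), though not without replicate 2 or 3.

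Of the 10 clones for secreted proteins that bind heparin or are held by it, 5 were upregulated and 2 downregulated at 1 dpi. At 4 dpi only 6 of them were tested, and 2 were upregulated. Osteopontin, a matrix glycoprotein, had log2 ratios of 2.64, 3.32 and 4.44 at 1 dpi and 5.61, 5.26, 6.79 and 5.59 at 4 dpi, a difference of 2.34 (adjusted p = 0.00775, limma). Fibronectin, a matrix ligand bound through syndecan 4, lay between 0.27 and 0.63 at 1 dpi and was not called there (mean 0.45, adjusted p = 0.0371). At 4 dpi it lay between 1.00 and 2.23 (mean 1.76, adjusted p = 0.000479), a difference of 1.31 (adjusted p = 0.0111, or 0.053 without replicate 2 of 1 dpi). Syndecan 4 and fibronectin thus had ratios that were each higher at a different time point. Insulin-like growth factor-binding protein 3 (1.25), transforming growth factor beta -2 (1.06), bone morphogenetic protein 2 (0.83) and tissue factor pathway inhibitor (0.77) were the others called up at 1 dpi. Vitronectin (-1.21) and the chemokine stromal cell-derived factor-1 gamma (-1.37) were called down. Apolipoprotein E, a lipid carrier, was not called at either time (-0.68 and 0.33), while its difference of 1.01 was called (adjusted p = 0.0206), but not when any 1 of the arrays of 1 dpi was left out.

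The 2 clones listed under glucuronyltransferases moved in opposite directions at 1 dpi. Clone RGIAR36, listed only as similar to glucuronyltransferase I, an enzyme that adds the last sugar of the linkage on which heparan sulfate is built, had log2 ratios of 0.69 and 1.45 at 1 dpi, where replicate 1 gave no value, and of 1.33, 1.44, 1.79 and 1.73 at 4 dpi. It was called at both times (means 1.07 and 1.57, adjusted p = 0.00635 and 4.54e-05, limma), and its difference of 0.50 did not pass the test (95% interval 0.02 to 0.99, adjusted p = 0.232). Beta-1,3-glucuronyltransferase 1, which makes the HNK-1 sugar of neural adhesion molecules, was called down at 1 dpi (-0.84) and had a mean of -0.59 at 4 dpi, within the limit of 0.7.

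EGF, the founding ligand of the receptor that HB-EGF activates, had log2 ratios of 0.86, 0.89 and 0.11 at 1 dpi. It was high on the same 2 arrays that gave a value for HB-EGF, both with ipsilateral RNA in Cy5, and low on the Cy3 array. Its mean of 0.62 was not called (adjusted p = 0.0288, limma), but was called without replicate 3 (0.00159), a fit in which dye and injury cannot be told apart. The single value of EGF at 4 dpi was 0.17.

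Of the 10 MAP kinase and growth response clones, 8 were upregulated and 1 downregulated at 1 dpi, with a median of 1.08. At 4 dpi limma and SAM called 0 of the 6 tested (median 0.16), 1 of which, MEKK1, was at an unadjusted p under 0.05, and at the share of 2.63% called up over all features a count of 0 among 6 says nothing particular about them. The MAP kinase phosphatase cpg21 (2.00), c-fos (1.66), v-myc (1.48), c-jun (1.14), ornithine decarboxylase (1.11), MAP kinase-activated protein kinase 2 (1.05), cyclin D1 (0.85) and TIS11 (0.79) were called up at 1 dpi, and MEKK1, a kinase upstream of JNK and ERK, was called down (-0.86). At 1 dpi TIS11 had values only on the 2 arrays with ipsilateral RNA in Cy5, so that dye and injury cannot be told apart for that call. Cyclin D1, which drives entry into the cell cycle, had 2 values at 4 dpi and was not tested there, with a mean of 0.84 close to that of 1 dpi. The transcription factor c-fos ranged from 0.70 to 2.51 at 1 dpi and from -0.95 to 2.00 at 4 dpi, so that its time points overlapped. Its values in Cy5 (2.51 and 1.77 at 1 dpi, 2.00 and 0.82 at 4 dpi) all exceeded those in Cy3 (0.70 and -0.95). At 1 dpi the Cy3 array was also the lowest for cpg21, v-myc, c-jun and MAP kinase-activated protein kinase 2. It was not the lowest for ornithine decarboxylase, cyclin D1 or MEKK1. With 1 array in Cy3 at 1 dpi, dye and animal cannot be told apart there. The difference between 4 and 1 dpi was called for c-jun (-0.94, adjusted p = 0.0364) and ornithine decarboxylase (-0.90, adjusted p = 0.044), the first enzyme of polyamine synthesis. The call of c-jun was lost without replicate 1 or 2 of 1 dpi (2 of the 4 fits that left out 1 array and could test it), and that of ornithine decarboxylase was held in 1 of 7 such fits, the one without replicate 2 of 4 dpi. At 1 dpi the calls of c-fos and tissue factor pathway inhibitor were lost without replicate 2 (adjusted p = 0.0201 and 0.021), and that of MEKK1 without replicate 1.

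All 3 clones for control of proteases were upregulated at 1 dpi. TIMP-1, a secreted inhibitor of metalloproteinases, had log2 ratios of 3.43, 3.25 and 3.47 (mean 3.38, adjusted p = 1.76e-07, limma). At 4 dpi it lay at -0.51 on replicate 1 and between 2.26 and 2.65 on the others, and was not called (mean 1.68, adjusted p = 0.0324), but was called without replicate 1 (2.40, adjusted p = 8.78e-06). TIMP-2 was called at both times (0.73 and 1.07), at 1 dpi only just and not without replicate 2 or 3. Tissue plasminogen activator fell from 1.54 to 0.43, a difference of -1.11 (adjusted p = 0.0173), a call lost without replicate 1 or 2 of 1 dpi (highest adjusted p = 0.0911).

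**Figure D4:**
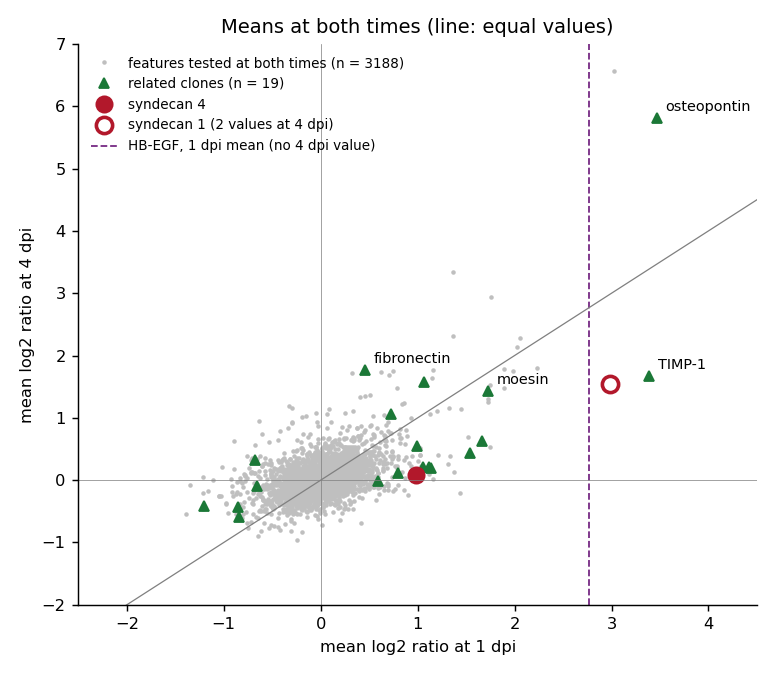
Mean log2 ratio at 1 dpi (horizontal) against 4 dpi (vertical) for the 3188 features tested at both times, with related clones as triangles, syndecan 4 as a filled and syndecan 1 as an open circle. The dashed line marks HB-EGF, 2.77 at 1 dpi with no value at 4 dpi, and both syndecans lie below the line of equal values.

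The features nearest to each syndecan were found by the root mean square difference of log2 ratios over the arrays on which that syndecan had a value. For syndecan 1, over 5 arrays and 3523 candidates, they were adipose differentiation-related protein, a coat protein of lipid droplets (0.50), CD44 (0.79), the unlisted clone RGIAG44 (0.83), S-100 related protein (0.89) and TIMP-1 (0.90). For syndecan 4, over 7 arrays and 2189 candidates, they were tryptophan-2,3-dioxygenase (0.26), histone H3.3 (0.27), thioredoxin reductase 1 (0.28), the unlisted clone RGIAF04 (0.30) and a clone listed as C.elegans hypothetical protein R10E12.1 (0.30). With Pearson correlation in place of that distance, 0 of the 5 for syndecan 1 and 1 of the 5 for syndecan 4 were shared. HB-EGF had too few values for such a comparison.

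Markers of cell types that enter or leave injured cortex were set beside these genes. Both syndecans had lower means at 4 dpi than at 1 dpi, while the microglia and macrophage clones all had higher ones. Their counts stand beside 3.9% up and 1.51% down over all features at 1 dpi, and 2.63% and 0.376% at 4 dpi, and these clones too come from lists of regulated genes. Of 4 microglia and macrophage clones (2 chains of C1q, class III Fc gamma receptor and macrophage expressed gene 1), 3 were called up at 1 dpi and 4 at 4 dpi, and their median per array ran from 0.60 to 0.80 at 1 dpi and from 1.09 to 1.81 at 4 dpi. Of 4 neuronal clones, 1 was called down at 1 dpi, and all 3 tested at 4 dpi were (2 of them not without replicate 3), with medians per array from -0.68 to -0.24 and from -1.11 to -0.64. Of 3 clones of fibroblasts and vessel wall, 1 was called up at 1 dpi (matrix Gla protein, 0.80) and the 2 collagens at 4 dpi. Their medians per array ran from -0.65 to 0.67 at 1 dpi and from 0.71 to 1.04 at 4 dpi. Collagen type I, alpha-1 was higher at 4 dpi than at 1 dpi by 1.20 (adjusted p = 0.00258, limma). Collagen, type III, alpha 1 was higher by 1.12 (adjusted p = 0.0355, up to 0.156 with 1 array left out). Matrix Gla protein went the other way, by -0.41 (adjusted p = 0.453). The C1q chains were higher at 4 dpi by 0.99 (C1q C, adjusted p = 0.00923, or 0.0533 without replicate 1 of 1 dpi) and 1.00 (C1q beta, adjusted p = 0.0372, lost without any 1 array of 1 dpi). At 1 dpi the call of C1q beta and that of matrix Gla protein, of the vessel wall, were lost without replicate 2 and that of C1q C without replicate 3, and at 4 dpi that of the Fc receptor without replicate 2 or 3. The part of cell numbers in the ratios of the syndecans and HB-EGF was not tested.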

How the data were processed

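Injured and uninjured cortex of 7 rats was hybridised to 2-colour cDNA arrays, 1 per animal. The authors took spot intensity minus local background, left out absent spots and those under 2 times background, normalised each array by Lowess (SMA package for R), turned swapped dyes and deposited the values as log2 ratios of ipsilateral over contralateral cortex. Every column of values belonged to a labelled array (0 did not). Spot intensities were not analysed here. Against the study's own fold changes, 411 of 454 deposited means lay within 0.1 on the log2 scale.

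Each feature's mean was tested against 0 with limma 3.58.1 (R 4.3.3) and Benjamini-Hochberg adjustment over all features with at least 2 values at 1 dpi or 3 at 4 dpi. The 4 dpi minus 1 dpi difference was fitted over all 7 arrays. The limits of 0.02 and 0.7 are those of the methods, which also applied 0.7 to each array. Here 0.7 was set on the mean, with 0.7 on every array as an alternative. The SAM test of the methods was another, in which a missing value was imputed from its 10 nearest neighbours. In data simulated with 200 features changed by 2, limma recovered 86% at 1 dpi, 99% at 4 dpi and 97% for the difference. Values were prepared with pandas 2.3.3 and drawn with matplotlib 3.10.9 in Python 3.11.15.

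The clones and lists were chosen with earlier results of these data known. Named were the 3 clones, the listed related clones and markers, and the 5 features nearest to each clone with at least 5 values. Names came from the study's lists by clone ID.

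The labels give each array its own number within a time point, and deviations of arrays with the same number correlated at -0.17, 0.01 and -0.27, so they were not taken as pairs. Between arrays of the same dye and different time points these correlations ran from -0.10 to 0.41, and between arrays of opposite dye, which include the same-number pairs at -0.17 and -0.27, from -0.34 to 0.03. The arrays are of separate animals, and their number limits the precision.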

Additional observations from a re-analysis of the deposited data

Results flagged for a closer look

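The response of syndecan 4 differed between the time points by -0.90 (4 dpi minus 1 dpi), with an adjusted p near its limit. Among related clones, the difference was also called for osteopontin (2.34), fibronectin (1.31), apolipoprotein E (1.01), c-jun (-0.94), ornithine decarboxylase (-0.90) and tissue plasminogen activator (-1.11). At 4 dpi a single array lay far from the other 3 for ezrin (0.76 on replicate 3) and for TIMP-1 (-0.51 on replicate 1), among 15 clones with 4 values. Chance gives such a gap in about 5% of groups.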

How the results depend on the processing

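Syndecans 1 and 4 and HB-EGF stayed called upregulated at 1 dpi under every alternative that could test them, among which the dye term is not counted for HB-EGF, since both of its values are in Cy5 and no dye effect could be estimated. Without 1 array the mean of syndecan 1 ran from 2.74 to 3.14 and that of HB-EGF from 2.72 to 2.82, where 2 of the 3 leave-outs left HB-EGF 1 value and no test. It had no test with values on all 3 arrays required. Syndecan 1 at 4 dpi (1.55) was called once 2 values or 1 were allowed (adjusted p = 0.00307 and 0.00363, limma), and so was its difference of -1.44 (0.0261 and 0.0358). The mean of syndecan 4 at 4 dpi ran from -0.07, without replicate 3, to 0.24, and was never called. Its difference lost the call with the replicate block (-0.85, adjusted p = 0.111), with 2 values or 1 allowed at each time (-0.90, adjusted p = 0.0542 and 0.0718) and at a limit of 0.02 (-0.90). The exact permutation test (-0.90) gave an unadjusted p = 0.0571, also above 0.05. Without 1 array the difference ran from -1.06 to -0.72. It kept the call with a dye term, centring, scaling and array weights. The count of related clones called stayed within 1.5 times of the 25 at 1 dpi and the 5 at 4 dpi. With 0.7 required on every array, 20 and 4 were called, and each of the 3 clones kept its call at 1 dpi. Spots flagged as absent or weak left HB-EGF with 2 values and syndecan 1 with 2 at 4 dpi.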
